A study of Homo sapiens with 9 samples.

Results

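The circadian clock genes described here are PER1, PER2, PER3, CRY1, CRY2, CLOCK, DBP, TEF, BHLHE40 and BHLHE41. They were taken from the table by name, and they are 10 of the 60612 genes in the deposited expression table. RNA sequencing had been done on 9 libraries of the established human prostate cancer line VCaP, which carries the TMPRSS2-ERG fusion. Cells received Control siRNA (labelled KMT2C normal), KMT2C siRNA#1 or KMT2C siRNA#2 (both labelled KMT2C deficiency), and total RNA was taken 4 days after transfection, with 3 libraries in each group. KMT2C encodes a histone H3 lysine 4 methyltransferase, and the siRNAs against it are called siRNA 1 and siRNA 2 below. All groups were transfected, and the design has no untransfected cells. No source used here gives the time of day of harvest, any synchronisation of the cells or the sequence of either siRNA, so the values are 1 time point of genes whose RNA can vary over the day. Whether the replicates came from separate cultures is not stated in the labels. A p-value here therefore sets a group difference only against the spread of these libraries, and that spread may be technical.

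The mammalian clock is a transcriptional feedback loop that runs in nearly every cell. CLOCK and its partner BMAL1 (gene ARNTL) bind E-box sequences and switch on the period genes (PER1, PER2, PER3) and the cryptochrome genes (CRY1, CRY2), whose proteins then return to the nucleus and repress CLOCK and BMAL1. DBP and TEF are E-box driven activators that bind D-box sequences in output genes, BHLHE40 and BHLHE41 (DEC1 and DEC2) compete at E-boxes as repressors, and a second loop through the REV-ERB and ROR nuclear receptors sets the level of BMAL1.

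Promoters are shown for the 4 tested members whose levels differed most between the siRNAs, so that the clock elements in them can be seen. They are RefSeq windows on GRCh38.p14 that run from 250 bases before an annotated start site to 50 bases after it, and all 10 members were matched, in 14 windows. Capitals mark the canonical E-box CACGTG, its variant CACGTT, which reads as AACGTG where it lies on the reverse strand, and the D-box TTACGTAA. The PER1 window is chr17:8152355-8152654, the PER2 window chr2:238288561-238288860, the CLOCK window chr4:55545883-55546182 and the CRY1 window chr12:107093500-107093799, all on the minus strand and written 5′ to 3′ along the gene.
PER1: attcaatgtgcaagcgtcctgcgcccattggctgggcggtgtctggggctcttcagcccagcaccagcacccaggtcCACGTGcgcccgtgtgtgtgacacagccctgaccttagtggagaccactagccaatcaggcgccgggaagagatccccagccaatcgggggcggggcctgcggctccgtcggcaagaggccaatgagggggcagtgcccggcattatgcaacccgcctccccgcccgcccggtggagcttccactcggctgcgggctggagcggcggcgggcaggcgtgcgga
PER2: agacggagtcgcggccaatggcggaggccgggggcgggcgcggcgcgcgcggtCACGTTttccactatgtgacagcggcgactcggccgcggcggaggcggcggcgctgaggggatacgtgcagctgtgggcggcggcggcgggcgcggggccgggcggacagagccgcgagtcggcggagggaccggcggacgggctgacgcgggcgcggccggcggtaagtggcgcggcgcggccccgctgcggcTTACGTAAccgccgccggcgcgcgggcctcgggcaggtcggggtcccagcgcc
CLOCK: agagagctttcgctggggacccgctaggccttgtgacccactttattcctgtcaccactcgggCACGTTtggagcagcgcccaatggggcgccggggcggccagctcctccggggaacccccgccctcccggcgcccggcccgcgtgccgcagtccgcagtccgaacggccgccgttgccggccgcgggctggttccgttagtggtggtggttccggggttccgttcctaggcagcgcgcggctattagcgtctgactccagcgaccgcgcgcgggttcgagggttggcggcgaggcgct
CRY1: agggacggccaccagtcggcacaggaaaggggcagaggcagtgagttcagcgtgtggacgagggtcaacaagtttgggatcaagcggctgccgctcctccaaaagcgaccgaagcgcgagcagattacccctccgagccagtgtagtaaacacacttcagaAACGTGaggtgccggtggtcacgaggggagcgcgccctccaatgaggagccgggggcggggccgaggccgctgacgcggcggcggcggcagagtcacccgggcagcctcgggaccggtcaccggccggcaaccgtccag
In PER1 the CACGTG begins 173 bases before the start site. In PER2 a CACGTT begins 197 bases before the start and a TTACGTAA begins 3 bases before it. CLOCK holds a CACGTT 187 bases before the start in this window and no searched motif in its other annotated window, and CRY1 holds the reverse form 89 bases before its start.

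Both strands were searched for CACGTG, for its variant CACGTT, for the D-box (TTATGTAA or TTACGTAA) and for the cyclic AMP element TGACGTCA, and no match of 1 motif overlapped a match of another in the members' windows. CACGTG was found in 5 of the 14 windows, from 4 genes (PER1, TEF, BHLHE40 and BHLHE41), and in 7.26% of all 35116 RefSeq windows of this length. CACGTT was found in 4 windows, those of PER2, CRY1, CRY2 and CLOCK, against 5.34% of all windows. The D-box was found in the PER2 and PER3 windows, against 1.01% of all windows, and TGACGTCA was in no member's window, against 1.85%. These matches describe the letters only.

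Library totals ranged from 58462215 to 70726213 counts, where about 4 counts may stand for 1 sequenced fragment. No library stood apart from its group (mean correlation with the others of its group 0.967 to 0.976). The mitochondrial share of the counts was 10.2% to 11.1% in control, 8.25% to 9.61% with siRNA 1 and 12.0% to 12.2% with siRNA 2, with no overlap between groups. Levels below are in FPKM, the authors' fragment numbers per kilobase of transcript, scaled for depth. KMT2C, the targeted gene, stood at 13.7, 12.1 and 12.9 FPKM in control, at 1.54, 1.80 and 2.28 with siRNA 1 and at 1.72, 1.64 and 1.73 with siRNA 2. All 9 luminal prostate and VCaP markers (such as KLK3 and ERG) were above 1 FPKM, and their summed level was 1642 to 1731 FPKM in control, 839 to 856 with siRNA 1 and 842 to 861 with siRNA 2. The leukocyte and endothelial markers stayed below 1 FPKM (3 genes each, CD3E at 0 in every library), as did 6 photoreceptor markers, with CRX at 0 in every library, which were looked at because the series text calls the RNA retinal. The sum of 3 basal markers, of which only KRT14 reached 1 FPKM, was 2.37 to 2.63 FPKM in control, 6.27 to 7.86 with siRNA 1 and 0.719 to 0.886 with siRNA 2, and that of 4 fibroblast markers, mainly LUM, was 1.56 to 2.46, 0.691 to 0.914 and 7.16 to 12.5 FPKM. These sums and the mitochondrial share moved with the groups, and their part in the clock gene results was not tested.

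BHLHE41 was below the filter on low values, which asked for 1 FPKM or more in 3 or more of the libraries, and the other 9 members passed it. In the control libraries BHLHE40 was highest, at 9.995 ± 1.48 FPKM (SD, n = 3), above 71.4% of the 12830 genes tested. CRY2 (4.83 ± 0.0914 FPKM) and CRY1 (4.67 ± 0.368 FPKM) came next and overlapped each other. Then came DBP (4.09 ± 0.234), CLOCK (4.05 ± 0.340), TEF (3.68 ± 0.245) and PER2 (3.59 ± 0.132 FPKM), in which each neighbour overlapped the next. PER3 followed at 2.14 ± 0.199 FPKM and PER1 at 1.66 ± 0.140 FPKM, above 25.8% and 19.6% of tested genes, and both stood apart from their neighbours in the order. BHLHE41 was lowest, at 0.0930 ± 0.00762 FPKM.

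The order changed under the KMT2C siRNAs. With siRNA 1 the ranges of BHLHE40, DBP, CLOCK, CRY1 and CRY2 ran into each other from one to the next. TEF and PER2 had lower means, although the wide range of CLOCK reached down to theirs, and PER3 and PER1 followed. With siRNA 2 the order was BHLHE40, CRY1, DBP and CRY2, TEF, PER1, then PER2, CLOCK and PER3, with only DBP and CRY2, PER2 and CLOCK, and CLOCK and PER3 overlapping as neighbours. PER1 thus stood below PER2 and PER3 in control and above both with siRNA 2, while CLOCK went from the middle group to near the foot of the tested members. BHLHE41 was lowest in all 3 groups.

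**Figure D1:**
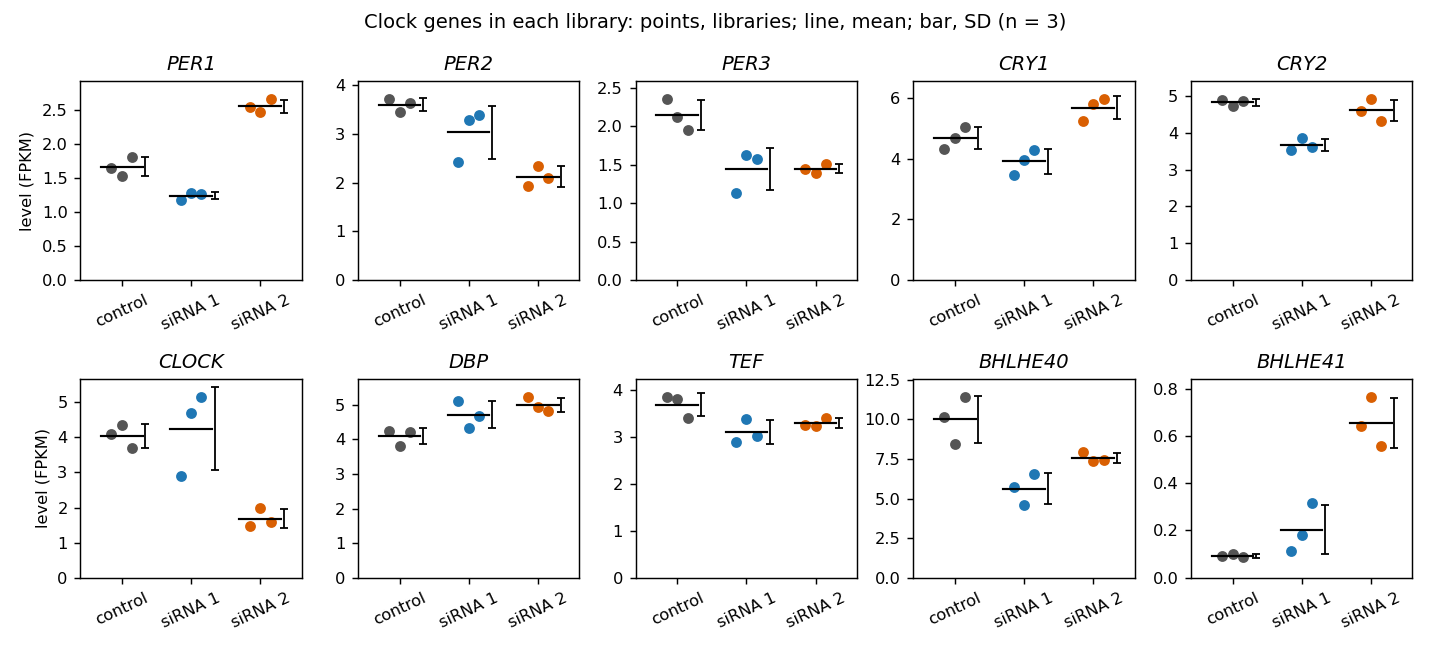
Level of each of the 10 clock genes in FPKM (vertical axes from 0, a scale for each gene) in the 9 libraries, by siRNA group. Points are libraries, lines group means and bars the SD of 3 libraries. PER1, CRY1 and BHLHE41 are highest with siRNA 2, CLOCK and PER2 lowest with siRNA 2, and the siRNA 1 points of CLOCK are the most spread.

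With siRNA 1, 5 of the 9 tested members fell against control (PER1, PER3, CRY2, TEF and BHLHE40) and none rose. Over all 12830 genes, edgeR's quasi-likelihood test at a Benjamini-Hochberg adjusted p under 0.05 called 41.7% in this comparison, 21.2% higher and 20.5% lower. With siRNA 2, 5 of 9 members also passed, with PER1 higher and PER2, PER3, CLOCK and BHLHE40 lower, against 49.3% of all genes (24.4% higher and 24.9% lower). Tested directly, siRNA 1 against siRNA 2, 5 of 9 differed: CLOCK and PER2 were higher with siRNA 1, and PER1, CRY1 and CRY2 higher with siRNA 2, against 39.5% of all genes (20.6% and 18.9%). The counts in either direction lie near the shares over all genes and are no result about the members. By direction, 5 lower and 0 higher with siRNA 1, and 4 lower and 1 higher with siRNA 2, stand beside the shares just given for lower and higher genes, and with 9 genes no more is read from them. In bulk RNA, fewer cells expressing a gene and less RNA per cell cannot be told apart.

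The members' median log2 fold change was -0.29 with siRNA 1 and -0.22 with siRNA 2, beside 0.01 and 0.02 over all tested genes, and the median size of change regardless of sign was 0.286 and 0.455, beside 0.328 and 0.387. The FPKM ranges of the 3 siRNA 1 and 3 control libraries did not overlap for 8 of 9 members (53.1% of all tested genes), and those of siRNA 2 and control for 7 of 9 (62.8%). Between the siRNAs they did not overlap for 6 of 9 members (52.3% of all tested genes). Both comparisons use the same 3 control libraries, so each gene's changes are given side by side below. A log2 fold change is given with its standard error (SE) and the adjusted p of the edgeR test over all tested genes.

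**Figure D2:**
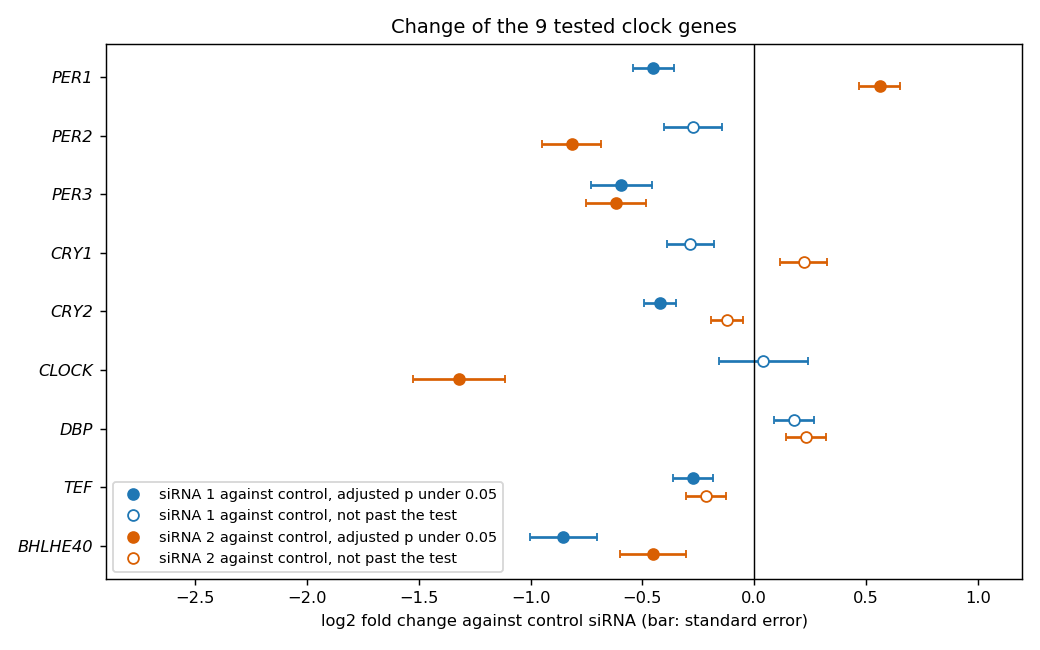
Log2 fold change of the 9 tested clock genes against control siRNA (horizontal axis), with bars of 1 standard error, for siRNA 1 (blue) and siRNA 2 (orange). Filled points passed the test at an adjusted p under 0.05. PER1 lies at -0.45 and 0.56, PER3 at -0.59 and -0.62, and CLOCK at 0.04 and -1.32.

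The period genes took 3 different courses. PER1 fell with siRNA 1 and rose with siRNA 2, PER2 fell with siRNA 2, and PER3 fell with both. The period proteins carry the repressive signal of the loop, and PER1 and PER2 are also acutely induced by hormones and cyclic AMP, while PER3 is considered less essential for the rhythm.

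PER1 (ENSG00000179094, GRCh38 chromosome 17, 8140472 to 8156405, minus strand) stood at 1.64, 1.53 and 1.81 FPKM in control, 1.18, 1.27 and 1.26 with siRNA 1 and 2.54, 2.47 and 2.66 with siRNA 2. No library of one group reached the range of another: every siRNA 1 library was below, and every siRNA 2 library above, all control libraries. The group means were 74.3% and 154% of control. PER1 fell with siRNA 1 by 0.45 ± 0.09 on the log2 scale (adjusted p = 0.0047). With siRNA 2 it rose by 0.56 ± 0.09 (adjusted p = 0.00107). Against each other the siRNAs differed by -1.01 ± 0.09 (siRNA 1 against siRNA 2, adjusted p = 6.42e-05). Among the tested members only CLOCK differed more, and the PER1 window printed above is the 1 of the 4 with a canonical E-box.

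PER2 (ENSG00000132326, chromosome 2, 238244044 to 238290102, minus strand) stood at 3.71, 3.45 and 3.62 FPKM in control, 2.41, 3.29 and 3.39 with siRNA 1 and 1.92, 2.34 and 2.09 with siRNA 2. All siRNA 2 libraries lay below all others, and of the siRNA 1 libraries 2 lay just under control while replicate 1 lay close to the siRNA 2 range. The fall with siRNA 2 was -0.82 ± 0.13 (adjusted p = 9.64e-04), to 59.0% of the control mean. With siRNA 1 the value was -0.27 ± 0.13 (adjusted p = 0.128), and -0.14 without replicate 1 of that group. The siRNAs differed by 0.54 ± 0.13 (siRNA 1 against siRNA 2, adjusted p = 0.0108).

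PER3 (ENSG00000049246, chromosome 1, 7784320 to 7845177, plus strand) stood at 2.35, 2.12 and 1.96 FPKM in control, 1.14, 1.63 and 1.57 with siRNA 1 and 1.44, 1.40 and 1.51 with siRNA 2. Every library of either siRNA was below every control library, and the siRNA groups overlapped. Under siRNA 1 PER3 fell by 0.59 ± 0.14 on the log2 scale, to 67.4% of control (adjusted p = 0.00792). Under siRNA 2 it fell by 0.62 ± 0.14, to 67.6% (adjusted p = 0.00511). The direct comparison gave 0.02 ± 0.14 (adjusted p = 0.910), the smallest difference between the siRNAs among the tested members. The antisense neighbour UTS2 shares 10.7% of PER3's exonic bases on the opposite strand in GENCODE release 29, but it had no counts in any library. Another antisense gene, Z98884.1, shares 5.95% of PER3's exonic bases, and its level is not given here.

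Added together, the 3 period genes gave 7.11 to 7.70 FPKM in control, 4.72 to 6.22 with siRNA 1 and 5.91 to 6.25 with siRNA 2, so the summed level was below control in all 6 knockdown libraries. What the sum was made of differed. PER1 supplied 22.5% ± 1.78 of it in control (SD, n = 3) and 20.2% to 24.9% in the siRNA 1 libraries, but 39.7% to 43.0% with siRNA 2. PER2 supplied 48.2% to 49.0% in control, 51.0% to 54.5% with siRNA 1 and 32.6% to 37.8% with siRNA 2. In siRNA 2 libraries PER1 was therefore the most abundant period transcript, and PER2 was so in the other 6. These shares follow from the gene values above and were not tested separately.

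**Figure D3:**
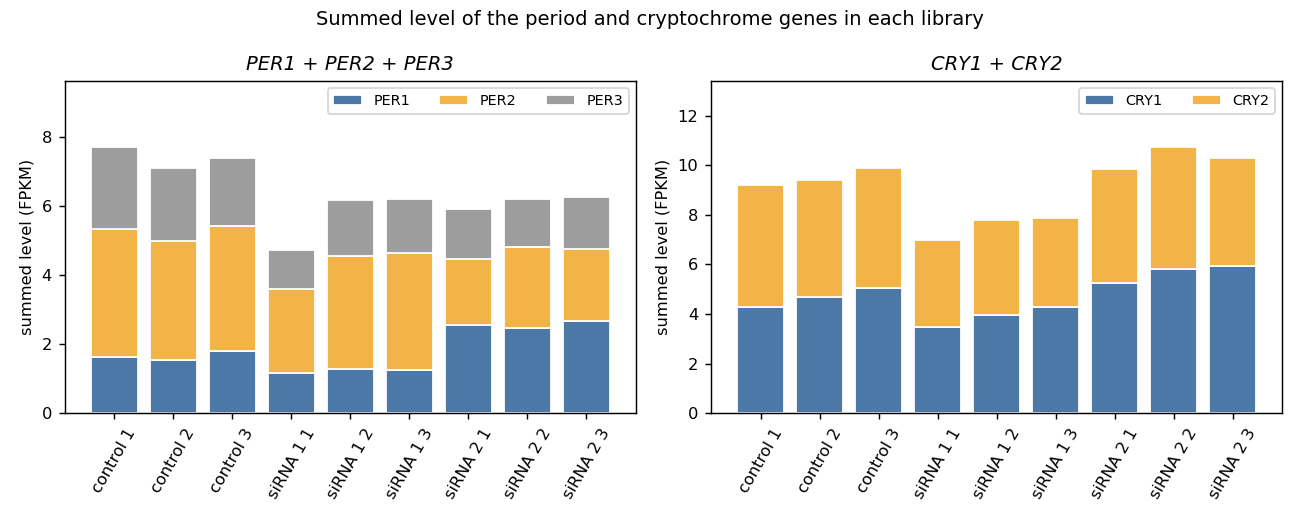
Summed FPKM of the 3 period genes (left) and the 2 cryptochrome genes (right) in each of the 9 libraries, stacked by gene from 0. The PER1 segment takes 39.7% to 43.0% of the bar in the siRNA 2 libraries and at most 24.9% in the others, and the cryptochrome sum is lowest in the siRNA 1 libraries, at 7.00 to 7.89 FPKM.

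The cryptochromes, the main repressors of CLOCK and BMAL1, differed between the siRNAs, both being higher with siRNA 2 than with siRNA 1. CRY1 (ENSG00000008405, chromosome 12, 106991364 to 107093549, minus strand) stood at 4.30, 4.68 and 5.03 FPKM in control, 3.46, 3.96 and 4.28 with siRNA 1 and 5.25, 5.81 and 5.95 with siRNA 2. The 3 groups did not overlap, although the highest siRNA 1 library nearly met the lowest control library. Neither siRNA passed the test against control (-0.29 ± 0.11, adjusted p = 0.0578, and 0.22 ± 0.11, adjusted p = 0.113). Of the 19 fits made in all, the value with siRNA 1 passed in 4 and that with siRNA 2 in 3. Against each other they differed by -0.51 ± 0.11 (siRNA 1 against siRNA 2, adjusted p = 0.00534).

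CRY2 (ENSG00000121671, chromosome 11, 45847118 to 45883247, plus strand) stood at 4.90, 4.73 and 4.86 FPKM in control, 3.53, 3.86 and 3.61 with siRNA 1 and 4.59, 4.92 and 4.33 with siRNA 2. All siRNA 1 libraries lay below the rest, and the control values lay within the siRNA 2 range. CRY2 fell with siRNA 1, by 0.42 ± 0.07 on the log2 scale (adjusted p = 0.00193), to 75.9% of control. With siRNA 2 the value was -0.12 ± 0.07 (adjusted p = 0.195), and the direct difference was -0.30 ± 0.07 (siRNA 1 against siRNA 2, adjusted p = 0.0110). The sum of both cryptochromes was 9.20 to 9.90 FPKM in control, 7.00 to 7.89 with siRNA 1 and 9.83 to 10.7 with siRNA 2. CRY1 made up 46.7% to 50.9% of it in control, 49.5% to 54.3% with siRNA 1 and 53.3% to 57.9% with siRNA 2.

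CLOCK (ENSG00000134852, chromosome 4, 55427903 to 55546909, minus strand), the DNA-binding activator that is also described as a histone acetyltransferase, fell with siRNA 2. It stood at 4.10, 4.36 and 3.68 FPKM in control, 2.90, 4.68 and 5.15 with siRNA 1 and 1.47, 2.00 and 1.58 with siRNA 2. The siRNA 2 libraries were all below the rest, whereas the siRNA 1 libraries lay on both sides of the control range. The fall with siRNA 2 was -1.32 ± 0.20 (adjusted p = 7.73e-04), to 41.6% of control, the largest change against control among the tested members. With siRNA 1 the value was 0.04 ± 0.20 (adjusted p = 0.889), and the direct difference was 1.36 ± 0.20 (siRNA 1 against siRNA 2, adjusted p = 9.76e-04).

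The siRNA 1 libraries spread more for CLOCK than for the other tested members (SD 1.19 FPKM on a mean of 4.24), with replicate 1 the lowest. The same library was the lowest of its group for PER1, PER2, PER3, CRY1, CRY2 and TEF and the highest for DBP. Without it the CLOCK values were 0.25 for siRNA 1 against control and 1.57 for siRNA 1 against siRNA 2. The neighbouring gene TMEM165, whose 3′ end meets that of CLOCK and shares 76 exonic bases with it on the opposite strand, stood at 6.89 to 8.45 FPKM in control, 5.74 to 6.22 with siRNA 1 and 3.59 to 4.55 with siRNA 2. It fell by 0.35 (adjusted p = 0.0364) and by 0.91 on the log2 scale (adjusted p = 2.39e-04). The shared bases are 0.646% of CLOCK's exonic length, and the sources used here do not say whether the reads were counted by strand.

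Neither of the D-box activators passed the test with siRNA 2, and TEF passed with siRNA 1, but the calls for these genes changed with the fit. DBP (ENSG00000105516, chromosome 19, 48630030 to 48637379, minus strand), a liver-rich output factor whose RNA follows CLOCK and BMAL1 activity closely, stood at 4.25, 3.82 and 4.20 FPKM in control, 5.10, 4.33 and 4.68 with siRNA 1 and 5.23, 4.93 and 4.81 with siRNA 2. All 6 knockdown libraries were above all control libraries, by a narrow margin. The values of 0.18 ± 0.09 (adjusted p = 0.138) and 0.23 ± 0.09 (adjusted p = 0.0565) did not pass the test, although the value with siRNA 2 passed in 7 of the 19 fits made in all, and the direct difference was -0.05 ± 0.09 (adjusted p = 0.676). SPHK2 on the opposite strand shares 10.1% of DBP's exonic bases, and it fell by 0.40 (adjusted p = 0.0309) and by 0.54 on the log2 scale (adjusted p = 0.00718).

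TEF (ENSG00000167074, chromosome 22, 41367333 to 41399326, plus strand), a relative of DBP that binds the same element, stood at 3.85, 3.79 and 3.40 FPKM in control, 2.88, 3.38 and 3.02 with siRNA 1 and 3.24, 3.22 and 3.40 with siRNA 2. The siRNA 1 libraries lay below control, narrowly in 1 case, and the siRNA 2 libraries met the lowest control library. The fall with siRNA 1 was -0.27 ± 0.09 (adjusted p = 0.0351). It is the least firm of the calls: it passed in 7 of the 19 fits, and it ended without control replicate 1 (adjusted p = 0.0970) or 2 (0.102), siRNA 1 replicate 1 (0.0831) or 3 (0.0883), or siRNA 2 replicate 1 (0.0538). With siRNA 2 the value was -0.22 ± 0.09 (adjusted p = 0.0725). DBP made up 50.2% to 55.3% of the sum of both genes in control, 56.1% to 63.9% with siRNA 1 and 58.6% to 61.7% with siRNA 2.

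BHLHE40 fell with both siRNAs while its relative BHLHE41 was higher with siRNA 2. BHLHE40 (ENSG00000134107, chromosome 3, 4979437 to 4985323, plus strand), a repressor also known as a hypoxia and differentiation gene, stood at 10.1, 8.46 and 11.4 FPKM in control, 5.71, 4.62 and 6.53 with siRNA 1 and 7.93, 7.37 and 7.43 with siRNA 2. Each siRNA 1 library was below each siRNA 2 library, and each of those below each control library. It fell by 0.85 ± 0.15 on the log2 scale with siRNA 1 (adjusted p = 0.00206), to 56.2% of control, and by 0.45 ± 0.15 with siRNA 2 (adjusted p = 0.0311), to 75.8%. The direct difference was -0.40 ± 0.15 (siRNA 1 against siRNA 2, adjusted p = 0.0612). The call with siRNA 2 held in 12 of 19 fits and ended without control replicate 1 (adjusted p = 0.0665) or control replicate 3, the highest library (0.107), and without any 1 of the siRNA 2 libraries (0.0555 to 0.0858).

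BHLHE41 (ENSG00000123095, chromosome 12, 26120030 to 26125037, minus strand) was scarce, with 25, 32 and 28 counts in control, then 36, 56 and 94 with siRNA 1 and 191, 236 and 170 with siRNA 2. In FPKM these are 0.0916, 0.101 and 0.0862, then 0.114, 0.181 and 0.315, then 0.643, 0.765 and 0.556. The groups did not overlap, and the siRNA 1 libraries were far apart from each other. In the fit with no filter on low values the rise with siRNA 2 was 2.70 ± 0.38 (adjusted p = 6.53e-04), the value for siRNA 1 was 1.11 ± 0.37 (adjusted p = 0.0811), with a direct difference of -1.59 ± 0.36 (adjusted p = 0.0152). Even so, BHLHE41 made up 0.944% of the summed FPKM of the pair in control, 3.44% with siRNA 1 and 7.96% with siRNA 2 on average. SSPN on the opposite strand shares 4.10% of BHLHE41's exonic bases. It stood at 0.0608 to 0.133 FPKM in control, 0.198 to 0.239 with siRNA 1 and 0.0776 to 0.175 with siRNA 2. The counts of BHLHE41 may also stand for fewer fragments, at about 4 counts for 1 fragment.

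The rest of the clock was read from 7 lists with 74 genes, of which 61 were tested. With siRNA 1, 32 of 61 passed (13 higher and 19 lower), with siRNA 2, 31 (15 and 16), and between the siRNAs 23 (9 and 14), beside the shares of 41.7%, 49.3% and 39.5% over all genes. Their median log2 fold changes were -0.14, -0.06 and -0.05. RORB and FBXW7 are among the 32 and the 31, and RORB is among the 23. PRKAA2 is among the 32 and the 23. All of them passed the filter through the libraries of 1 siRNA alone, and no test is read from them.

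None of the other activators of the loop passed the filter. ARNTL, which encodes BMAL1, the partner of CLOCK, stood at 0.792, 0.608 and 0.668 FPKM in control, 0.245, 0.309 and 0.307 with siRNA 1 and 0.835, 0.801 and 0.820 with siRNA 2. Its siRNA 1 libraries were thus all below control, and its siRNA 2 libraries all narrowly above control. CLOCK was instead low with siRNA 2, and its siRNA 1 libraries lay on both sides of the control range. Under siRNA 1 the fit with no filter gave -1.27 ± 0.16 for ARNTL (adjusted p = 5.99e-04). Under siRNA 2 it gave 0.17 ± 0.16 (adjusted p = 0.520). NPAS2, which can take the place of CLOCK, stood at 0.330 to 0.448 FPKM in control, 0.184 to 0.236 with siRNA 1 and 0.168 to 0.186 with siRNA 2, and the same fit gave -0.95 (adjusted p = 0.0052) and -1.23 (adjusted p = 8.02e-04). These 2 genes fall outside the rule for named genes and were picked after their values were seen.

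In the REV-ERB and ROR loop 3 of 5 genes were tested, and the REV-ERB genes NR1D1 and NR1D2 rose with siRNA 2. NR1D2 (REV-ERB beta), a repressor of ARNTL, stood at 8.17 to 8.42 FPKM in control, 6.31 to 7.31 with siRNA 1 and 11.8 to 12.2 with siRNA 2. It fell by 0.33 ± 0.07 on the log2 scale with siRNA 1 (adjusted p = 0.00505) and rose by 0.48 ± 0.07 with siRNA 2 (adjusted p = 4.75e-04). NR1D1 (REV-ERB alpha) stood at 1.49 to 1.83 FPKM in control, 1.71 to 1.86 and 2.57 to 2.73, and rose with siRNA 2 (0.63 ± 0.12, adjusted p = 0.00243) but gave 0.09 with siRNA 1 (adjusted p = 0.560). THRA on the opposite strand shares 9.49% of NR1D1's exonic bases and also rose with siRNA 2 (1.16, adjusted p = 0.0143). RORB, a receptor known from neurons and retina, was at most 0.0522 FPKM in control, 0.623 to 0.901 with siRNA 1 and 3.73 to 4.01 with siRNA 2, so it passed the filter through the siRNA 2 libraries alone and no test is read from it.

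Of the other D-box factors and repressors, 1 of 3 was tested. NFIL3, which represses through the element that DBP and TEF activate, stood at 10.5 to 11.9 FPKM in control, 5.08 to 5.71 with siRNA 1 and 5.68 to 6.22 with siRNA 2, and fell with both (-1.05 ± 0.09, adjusted p = 6.89e-05, and -0.94 ± 0.09, adjusted p = 5.54e-05). In control cells NFIL3 was thus at a higher FPKM than DBP and TEF summed (7.60 to 8.09), and in all knockdown libraries at a lower one (7.70 to 7.98 with siRNA 1 and 8.15 to 8.47 with siRNA 2). Of the PER and CRY partners, TIPIN rose with both siRNAs (0.51, adjusted p = 0.00452, and 0.31, adjusted p = 0.0327). The processed pseudogene RPL9P25 shares 579 of TIPIN's 2755 exonic bases on the same strand. The level of RPL9P25 is not given here, and its part in the TIPIN values was not tested. TIMELESS, better known for its role at replication forks, rose with siRNA 1 (0.36, adjusted p = 0.0141) and gave -0.01 with siRNA 2 (adjusted p = 0.930).

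**Figure D4:**
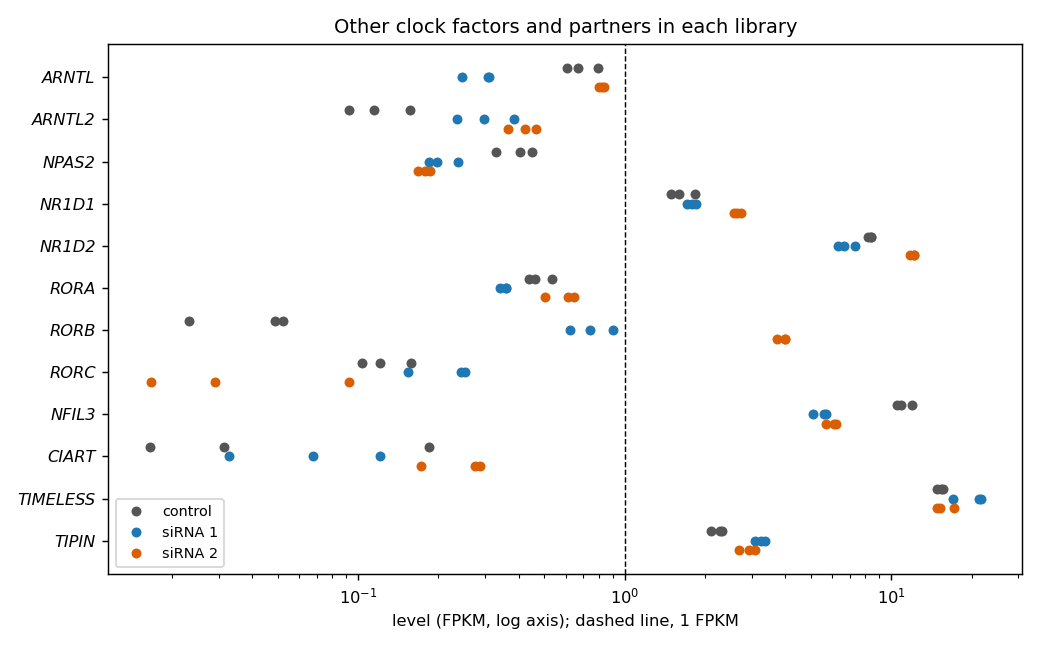
Level in FPKM (log axis) of the other activators, the REV-ERB and ROR genes, the other D-box factors and repressors (without HLF, which was near 0) and the PER and CRY partners, with 1 point for each library, coloured by siRNA group. The dashed line is 1 FPKM, the level used in the filter. NFIL3 is lower with both siRNAs than in control, ARNTL lower with siRNA 1 and NR1D2 higher with siRNA 2.

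Genes that modify clock proteins were tested in 24 of 25 cases, and 15 passed with siRNA 1 (6 higher and 9 lower) and 16 with siRNA 2 (5 and 11), beside 41.7% and 49.3% of all genes. FBXW11, which recognises phosphorylated period proteins, fell by 0.31 (adjusted p = 0.00448) and by 1.44 on the log2 scale (adjusted p = 9.19e-07). PRKAA1, a subunit of AMP kinase, which phosphorylates cryptochromes, fell by 0.31 (adjusted p = 0.00106) and by 1.43 (adjusted p = 2.89e-07). PRKAA2, the other catalytic subunit, stood at 0.464 to 0.551 FPKM in control, 1.46 to 1.85 with siRNA 1 and 0.592 to 0.615 with siRNA 2, so it passed the filter through the siRNA 1 libraries alone. It is among the 15 and no test is read from it. FBXW7 stood at 0.615 to 0.722 FPKM in control, 0.805 to 0.917 with siRNA 1 and 1.01 to 1.19 with siRNA 2. It thus passed the filter through the siRNA 2 libraries alone. FBXW7 is among the 15 and the 16, and no test is read from it either.

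Of the coregulators 21 of 22 were tested, and 9 passed with siRNA 1 (3 higher and 6 lower) and 6 with siRNA 2 (3 and 3), near and below the 41.7% and 49.3% of all genes. TBL1X, of the corepressor complex that REV-ERB recruits, rose with both (0.47, adjusted p = 0.00137, and 1.16, adjusted p = 6.35e-06). SFPQ, a partner of the period proteins, fell with both (-0.34, adjusted p = 8.48e-04, and -0.35, adjusted p = 5.17e-04). KAT2B, an acetyltransferase that binds CLOCK, rose with siRNA 1 (0.76, adjusted p = 0.0017) and gave 0.22 with siRNA 2 (adjusted p = 0.186).

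Among the clock-controlled output genes 10 of 14 were tested, and 3 passed with siRNA 1 (1 higher and 2 lower) and 4 with siRNA 2 (3 and 1), both below the 41.7% and 49.3% of all genes. KLF10, a transcription factor, rose with both (1.12, adjusted p = 3.26e-05, and 1.11, adjusted p = 1.37e-05). CDKN1A, the cell cycle inhibitor p21, fell with siRNA 2 (-1.99, adjusted p = 2.47e-05) and gave -0.39 with siRNA 1 (adjusted p = 0.0869). POR, the electron donor of cytochrome P450 enzymes, fell with siRNA 1 (-0.53, adjusted p = 6.78e-04) and gave -0.17 with siRNA 2 (adjusted p = 0.0943). NAMPT, the rate-limiting enzyme of NAD salvage, rose with siRNA 2 (0.36, adjusted p = 0.00156) and gave 0.18 with siRNA 1 (adjusted p = 0.0549).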

How the data were processed

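The deposited table gives 2 columns for each of 9 libraries. The FPKM values are the authors' own, and a gene that has no counts is listed at 0.0001. The other deposited columns are whole-number expected counts (per the file headers, counts), in which low values pile up at 4 (11286 values, against 6621 at 1 and 4677 at 3), so about 4 counts may stand for 1 fragment. The submitters' processing notes name Bowtie 0.12.2 and the builds hg38 and mm8, with no role for any; the counting tool, its annotation and its strand setting were not given in the sources used here. Coordinates are those of the deposited table, on GRCh38, and exon overlaps are from GENCODE release 29.

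The counts were rounded, which changed no value. They were tested with edgeR 4.0.16 (R 4.3.3): TMM scaling, quasi-likelihood F test, all 9 libraries, 1 mean per group, 2-sided. Benjamini-Hochberg adjustment ran over the 12830 genes that reached 1 FPKM in 3 or more libraries, with a threshold of 0.05. The SE is the size of the log2 fold change over the square root of F. The comparison of siRNA 1 with siRNA 2 tests the difference of the 2 effects. Alternatives were DESeq2 1.42.0, upper-quartile scaling, no filter, filterByExpr, counts divided by 4, limma 3.58.1 on log2(FPKM + 1) and log2(FPKM + 0.1), a replicate block, the compared groups alone, and each library left out. The code was tested on simulated data first.

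The members and lists were chosen with earlier results of these data known, and no list was tested as a set. The text names KMT2C, all members, each tested gene of the 4 lists of clock factors (core activators, REV-ERB and ROR loop, other D-box factors and repressors, PER and CRY partners), and of the lists of clock protein modifiers, coregulators and outputs the 4 genes with the smallest adjusted p in either siRNA against control. A few of these are not reported here. Some genes that share exonic bases with a named gene are named for that reason, and others are not named.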

Additional observations from a re-analysis of the deposited data

Results flagged for a closer look

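A difference between the siRNAs (siRNA 1 against siRNA 2, edgeR's quasi-likelihood test, adjusted p under 0.05) drew attention to 5 of the members. CLOCK differed by a log2 fold change of 1.36 and PER2 by 0.54, both higher with siRNA 1, and PER1 by -1.01, CRY1 by -0.51 and CRY2 by -0.30, all higher with siRNA 2. Over all tested genes, 39.5% passed this test.

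Another 12 of the named clock genes had an adjusted p under 0.05 in the same comparison. Most of them are named for a small adjusted p in their list, so this number says nothing about clock genes in general. RORB and PRKAA2 are counted in the 12, but they passed the filter through the libraries of 1 siRNA alone. No test is read from them, and their differences are given as values only. Those higher with siRNA 2 were RORB (-2.34), NR1D2 (-0.81), TBL1X (-0.69), NR1D1 (-0.53), POR (-0.37) and NAMPT (-0.19). Those higher with siRNA 1 were CDKN1A (1.60), PRKAA2 (1.49), FBXW11 (1.13), PRKAA1 (1.12), KAT2B (0.54) and TIMELESS (0.38). With groups of 3 libraries, no test for single outlying libraries was made.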

How the results depend on the processing

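Over 18 other fits, PER1, PER3, CRY2 and BHLHE40 kept their calls with siRNA 1, and PER1, PER2, PER3 and CLOCK theirs with siRNA 2. Between the siRNAs, PER1, PER2, CRY1 and CLOCK kept theirs, while CRY2 lost its call with no filter (adjusted p = 0.0572). Leaving out 1 library in turn gave 4511 to 5082 genes with siRNA 1 against control, 5508 to 6706 with siRNA 2 and 4109 to 4981 between the siRNAs. It gave 4 to 5, 4 to 6 and 5 to 6 members, and 27 to 31, 27 to 34 and 19 to 25 other clock genes. The other settings gave 4 to 6, 5 to 7 and 5 to 6 members. In 2 of them, no filter and filterByExpr, BHLHE41 was fitted too, so those counts are out of 10 members. BHLHE41 passed in both with siRNA 2 and between the siRNAs, and in neither with siRNA 1. Signs turned for values that had not passed the test. Leaving out 1 library in turn gave -0.127 to 0.246 for CLOCK with siRNA 1, below 0 without control replicate 3, siRNA 1 replicate 2 or siRNA 1 replicate 3. Between the siRNAs it gave -0.062 to 0.163 for PER3, below 0 without siRNA 1 replicate 2, siRNA 1 replicate 3 or siRNA 2 replicate 2, and -0.126 to 0.0102 for DBP, above 0 without siRNA 1 replicate 2. PER3 was also below 0 with upper-quartile scaling (-0.025) and with limma at pseudocounts of 1 (-0.0085) and 0.1 (-0.0193). The cause was not tested.

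Same-numbered libraries did not deviate together (correlations -0.0688 to 0.0393), so the numbers were not taken to pair them. With a replicate block, 5007, 6070 and 4766 genes passed, 5, 7 and 6 members and 30, 30 and 23 other clock genes, in the order above. Depth limits BHLHE41, whose control libraries held 25 to 32 counts.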

Other observations

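The KEGG pathway names in the deposited table mark 31 genes as circadian rhythm, 8 of them members, and 24 were tested. With siRNA 1, 13 passed (3 higher and 10 lower), with siRNA 2, 18 (5 and 13), and between the siRNAs 12 (6 and 6), beside 41.7%, 49.3% and 39.5% of all tested genes. Their median log2 fold changes against control were -0.22 and -0.27. The calls of the members in this pathway were already given above and are counted again here. Any genes that passed the filter through the libraries of 1 siRNA alone were not taken out of these counts, and no test is read from them.

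Further clock factors were below the filter, and their values come from the fit with no filter on low values and were picked after they were seen. ARNTL2, a relative of ARNTL, stood at 0.0922 to 0.156 FPKM in control, and the fit gave 1.31 with siRNA 1 (edgeR adjusted p = 0.0084) and 1.69 with siRNA 2 (edgeR adjusted p = 0.00137). RORA, an activator of ARNTL, gave -0.45 (edgeR adjusted p = 0.051) and 0.22 (edgeR adjusted p = 0.331), with a direct difference of -0.67 (siRNA 1 against siRNA 2, edgeR adjusted p = 0.00787).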
